A study of Homo sapiens with 28 samples.

Results

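The JARID2 locus on chromosome 6 was described through the accessible sites of AN3CA, a human cell line established from endometrial carcinoma. Accessibility was profiled by ATAC-seq, which uses a transposase to insert adapters into open DNA. The members are all peaks of the 28 deposited broad-peak lists (hg19) that overlap the JARID2 gene, chr6:15246527-15522253, with 50 kb on each side. Overlapping peaks of all lists were merged into sites, which gave 49 sites from 460 peaks, of 117446 sites in the whole series on chromosomes 1 to 22 and X. The locus was proposed because one 1620 bp region at chr6:15504299-15505918 was among the strongest gained with wild-type ARID1 proteins. The contrast of wild type against empty vector therefore chose the locus, and its values are given below as a description without a test.

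All libraries came from AN3CA cells. The 4 Empty_vector libraries are the controls, and the 4 wild-type libraries expressed ARID1A_WT (2) or ARID1B_WT (2). The altered ARID1A proteins, with 2 libraries each, were ARID1A_DBDmut with a mutated ARID domain, the truncations ARID1A_delIDR1 and ARID1A_CBR, ARID1A_DDX4, a hybrid with the disordered region of DDX4, ARID1A_Y42S and ARID1A_AQGscramC1C2. The altered ARID1B proteins, with 2 libraries each, were ARID1B_S320_G327del, ARID1B_A457_G461del, ARID1B_Block13del and ARID1B_Block9del. In 10 libraries of 5 constructs the genotype label names the empty vector while the title names a construct, and these were grouped by title. The labels do not say whether the proteins were expressed in 1 clone or a pool, and they name no separate culture for a replicate. The p-values therefore rest on the spread among these libraries alone, and that spread may be technical.

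ARID1A and ARID1B are alternative large subunits of the canonical BAF (cBAF) remodeler, which moves nucleosomes and opens enhancers. JARID2, the gene described here, encodes a Jumonji-family protein with an ARID-type DNA-binding domain of its own and without demethylase activity. It is an accessory subunit of the Polycomb complex PRC2, which methylates histone H3 at lysine 27, and it helps to place and regulate that complex during differentiation. In the RefSeq annotation the neighbouring genes are the divergent transcript JARID2-DT, the antisense transcript JARID2-AS1 and, downstream, DTNBP1, which encodes dysbindin. The gene coordinates given here are those of hg19, while RefSeq was at hand in GRCh38.p14, so RefSeq was used for names and promoter sequences and nothing was converted between the builds. Exons and introns of the sites in hg19 were not analysed here.

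RefSeq lists 2 start sites for JARID2, 2786 bp apart, and the upstream 250 bases of both are shown because the strongest shared sites of the locus lie at this end of the gene. Capitals mark the cAMP response element, TGACGTCA, the palindromic site known to be bound by CREB and ATF proteins. The first window is chr6:15245819-15246068 and the second chr6:15248605-15248854, both GRCh38.p14 and plus strand.
JARID2 first start: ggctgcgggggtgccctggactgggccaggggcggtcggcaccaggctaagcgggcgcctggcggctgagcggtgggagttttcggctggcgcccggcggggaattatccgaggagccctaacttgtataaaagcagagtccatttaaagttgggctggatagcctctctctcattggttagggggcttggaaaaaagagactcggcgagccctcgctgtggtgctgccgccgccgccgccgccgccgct
JARID2 second start: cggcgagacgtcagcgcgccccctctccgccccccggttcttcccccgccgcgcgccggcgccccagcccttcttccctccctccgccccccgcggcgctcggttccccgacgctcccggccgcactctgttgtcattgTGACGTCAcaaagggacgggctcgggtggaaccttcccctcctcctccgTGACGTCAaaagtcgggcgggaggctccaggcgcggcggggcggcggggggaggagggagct
The second promoter holds the element at 2 places, 111 to 104 and 62 to 55 bases before the start, and the first promoter holds none. Of the 35116 promoter entries of the same 300-base length in RefSeq (250 bases before and 50 after a start), 1.85% contain it. The GC box (GGGCGG), known to be bound by SP-family factors, was found on either strand at 6 places in the 300-base window of the second start, 4 of them in the stretch shown, and at 1 place in that of the first, against 45.0% of all entries with at least 1. The motifs of AP-1 (TGANTCA, in 7.71% of entries), TEAD (GGAATG, 14%) and ETS factors (CCGGAAG, 10.3%) were in neither window on either strand. None of the 5 motifs contains another. The second promoter had 40 CpG dinucleotides, more than 92.4% of entries, and the first had 24, more than 66.1%. These letters describe the windows only and show no binding.

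Each peak carries the authors' fold enrichment over the background of the peak caller, and a −log10 p-value by which peaks were ranked within their own list (rank 1 is the most significant). List lengths ran from 19489 to 76589 peaks, and read depth is unknown. To compare libraries, each list was also trimmed to its 19433 most significant peaks, called the list of equal length. Date codes in the peak names divide the libraries into 6 runs, A to F. Runs A and B each held 1 library of ARID1A_CBR, ARID1A_DBDmut, ARID1A_delIDR1, ARID1A_WT and Empty_vector. Run C held Empty_vector 3 and 4, ARID1B_WT and ARID1B_S320_G327del, run D ARID1A_DDX4, run F ARID1A_AQGscramC1C2, and run E the other 4 constructs. Runs D, E and F had no control library, and run and construct cannot be told apart in runs D and F. Among the altered constructs the same holds for run C, where ARID1B_S320_G327del was the only one. In tests over all altered libraries, differences between runs therefore enter the difference between constructs.

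The 49 sites were 194 to 2219 bp wide, with a median of 635 bp. The gene interval held 41 of them, with 3 upstream and 5 downstream. Most were weak: 37 of the 49 were in no list of equal length, beside 67.4% of all sites in the series, and 9 were called by 1 library only, beside 18.8%. In the whole lists 2 sites were called by all 28 libraries, beside 13.5% of all sites, and 1 of these also in all lists of equal length, beside 8.45%. Empty_vector lists held 13 of the 49 sites, beside 44.6% of all sites. Wild-type lists held 30 further sites that no Empty_vector list had, beside 39.5%, and 3 sites were in an Empty_vector list and in no wild-type list, beside 9.39%. Fewer cells with an open site and less opening per cell cannot be told apart in these bulk libraries.

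**Figure D1:**
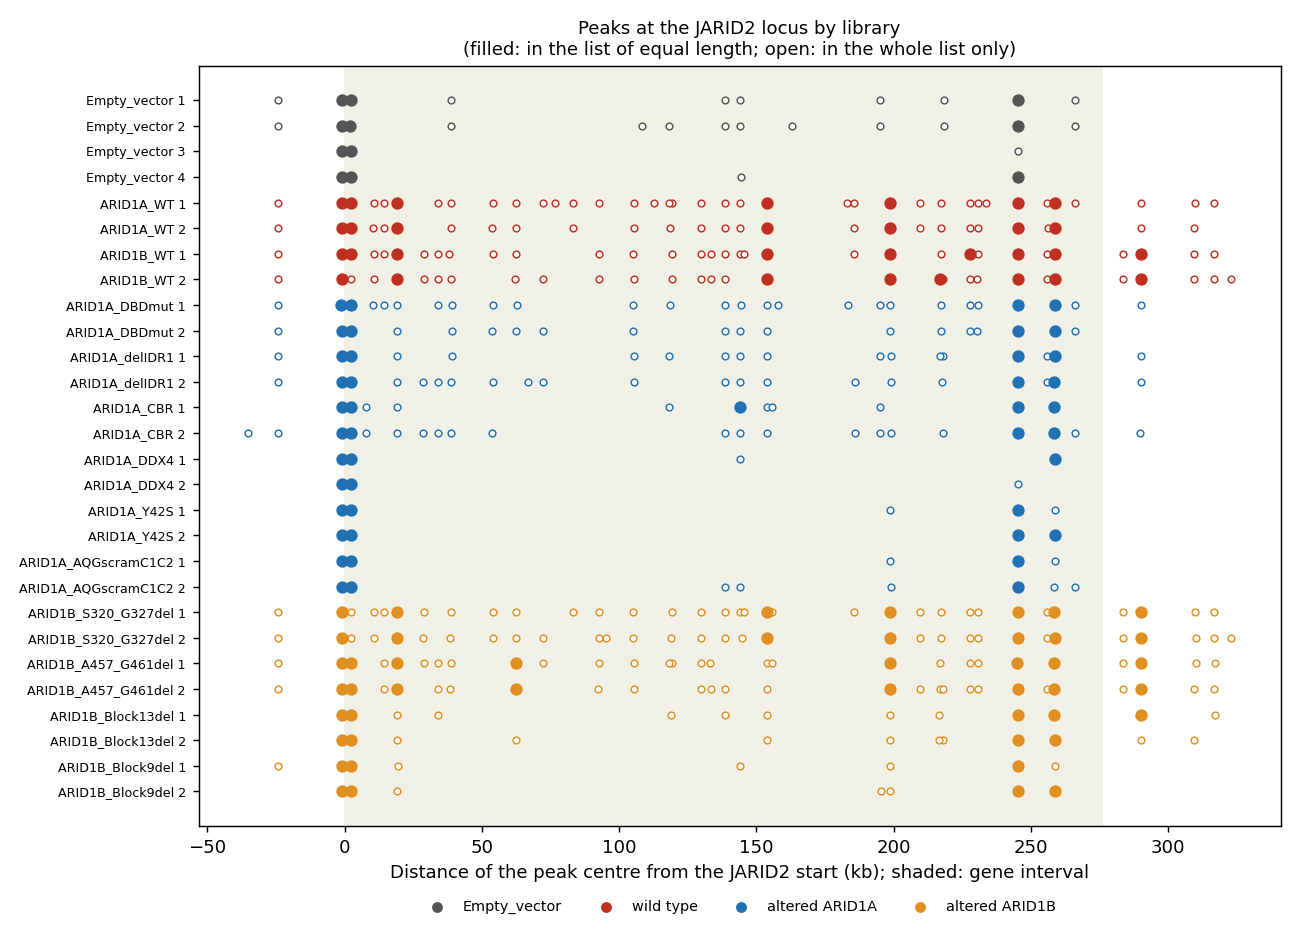
Peaks at the JARID2 locus in each of the 28 libraries, placed by the distance of the peak centre from the gene start in kb, with the gene interval shaded. Filled points are peaks in the list of equal length and open points are in the whole list only; the filled points at -1.11, 2.07 and 245 kb are shared by at least 25 libraries, while those at 19.2 and 199 kb belong to wild-type, ARID1B_S320_G327del and ARID1B_A457_G461del libraries and those at 154 kb to wild-type and ARID1B_S320_G327del libraries.

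The site nearest the JARID2 start, chr6:15244529-15246313, ends 214 bp before the gene start and was the one member in all 28 lists of equal length. Its rank was 1154, 868, 1463 and 636 in the Empty_vector lists, 372 and 654 in the ARID1A_WT lists and 901 and 1827 in the ARID1B_WT lists. In the 20 altered libraries the rank ran from 536 to 3287, with a median of 1251. The groups overlapped, and the authors' fold was similar in all of them, 4.51 to 6.40 with Empty_vector, 4.58 to 4.99 with wild type and 4.58 to 5.88 in the altered libraries. The highest rank number, 3287, was that of ARID1B_Block13del 2, a library of run E, and the lowest, 372, that of ARID1A_WT 1.

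A second site at chr6:15247671-15249521, centred 2.07 kb inside the gene, was also in all 28 whole lists, at a lower fold of 2.68 to 3.88. The centres of these sites lie 3175 bp apart in hg19. The Empty_vector ranks were 12498, 8944, 10519 and 12435, and those of ARID1A_WT, 10776 and 9066, lay among them. In run C the order differed: ARID1B_WT had ranks of 17448 and 21602 and ARID1B_S320_G327del 21808 and 21959, all higher numbers than those of Empty_vector 3 and 4 in the same run. Their lists were longer, at 59826 to 70321 peaks against 24573 and 28353, and the part of list length was not tested. The −log10 p-values overlapped, at 15.2 to 19.4 against 16.7 and 20.2. As a percentage of the own list the ranks were 27.5 to 36.1, against 42.9 and 43.9. The ranks of ARID1B_WT and ARID1B_S320_G327del were the 4 highest numbers of all 28 libraries at this site. ARID1B_WT 2 and both ARID1B_S320_G327del libraries thus lacked it in the list of equal length. The remaining libraries had ranks from 8206 (ARID1A_AQGscramC1C2 1) to 15667 (ARID1B_A457_G461del 1). The fold was 2.96 and 3.02 with ARID1B_WT and 2.92 and 2.68 with ARID1B_S320_G327del. Of these, 2.68 was the lowest of all 28 libraries, and the others lay within the Empty_vector range of 2.79 to 3.88.

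The third widely shared site, chr6:15491221-15492130, is centred 245 kb from the start and was called by 27 libraries, all but ARID1A_DDX4 1. The Empty_vector ranks were 16910, 17706, 19569 and 18734, against 8962 and 12881 with ARID1A_WT and 10389 and 4348 with ARID1B_WT. All wild-type libraries thus ranked it higher than every Empty_vector library. This contrast chose the locus, and the share of all sites with such an order was not counted, so nothing is read from it. The fold was 4.63 to 6.90 with Empty_vector and 5.21 to 10.3 with wild type, and these ranges overlapped. Both ARID1A_delIDR1 libraries, at 12454 and 8238, lay within the wild-type range, while ARID1A_DDX4 2 had the weakest peak, at rank 22561 with a fold of 3.16 and a width of 188 bp.

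**Figure D2:**
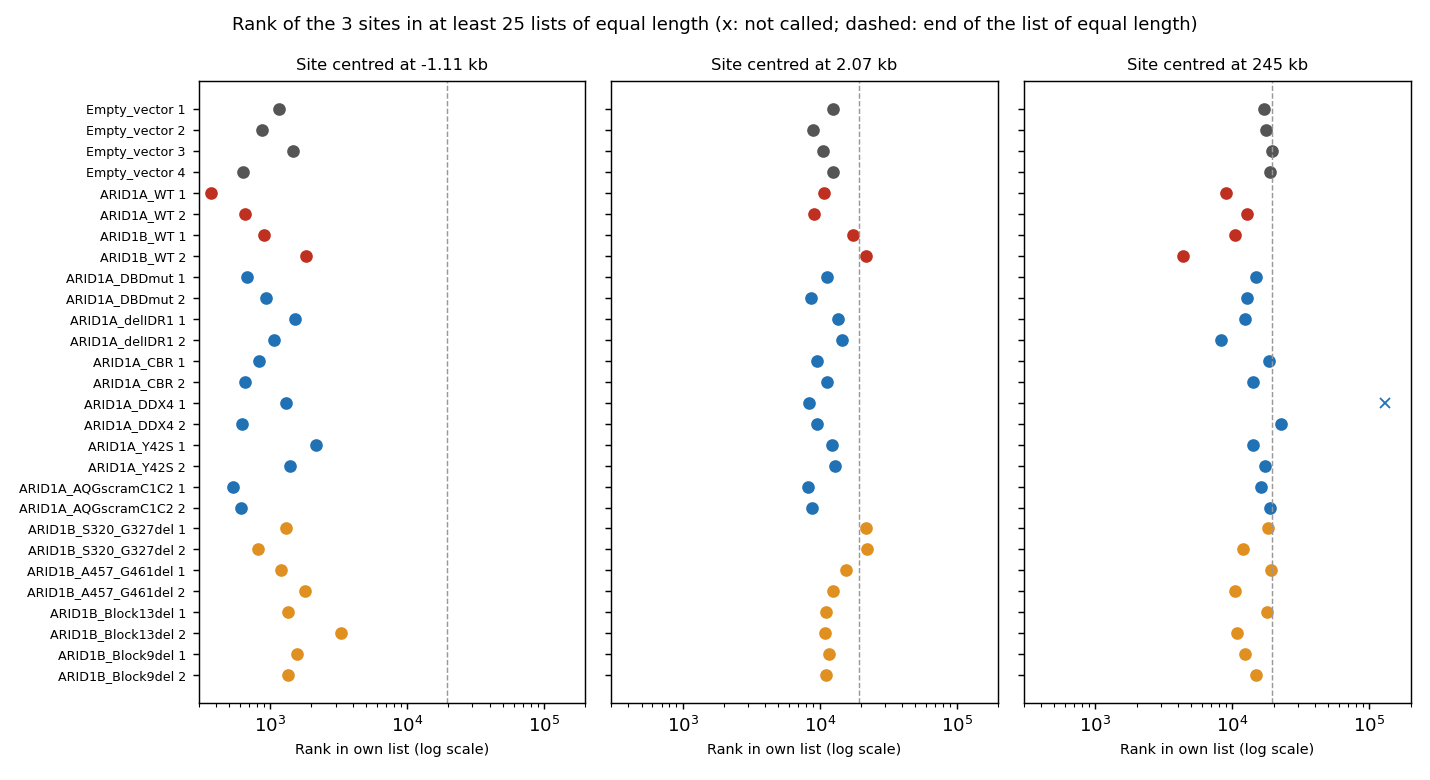
Rank (log scale) of the 3 sites present in at least 25 lists of equal length, centred at -1.11, 2.07 and 245 kb from the JARID2 start; each point is 1 library, a cross is a library that did not call the site, and the dashed line is the end of the list of equal length at 19433. At 2.07 kb the 2 ARID1B_WT and 2 ARID1B_S320_G327del libraries stand at the right, and at 245 kb the 4 wild-type libraries stand left of all Empty_vector libraries.

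Inside the gene, 4 of the 49 sites were gained, that is, called in the lists of equal length by all 4 wild-type libraries and by no Empty_vector library, beside 1.62% of all sites in the series. None was lost in the opposite sense, beside 0.636%. No Empty_vector list held any of the 4 gained sites even at full length. In the whole lists 13 of the 49 sites met the rule, beside 14.8% of all sites. Since this contrast chose the locus, nothing is read from these shares. Just outside the rule stood the site at chr6:15535967-15536932, which 2 wild-type lists of equal length called, and the sites centred at 217 and 228 kb, which 1 called.

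The region that led to the choice of the locus, chr6:15504299-15505918, starts 258 kb inside JARID2 and is centred at 259 kb, at 93.8% of the length of the gene. It ends 16.3 kb before the gene does. It ranked 509 and 815 in the ARID1A_WT lists and 1382 and 706 in the ARID1B_WT lists. Its fold there was 4.86, 4.70, 4.74 and 5.38, in the order just given. No Empty_vector library called it. The region was chosen as gained with wild type, so nothing is read from this. Against the site nearest the gene start in the same libraries, at ranks 372, 654, 901 and 1827, this distal region stood at a like place in the list, stronger in ARID1B_WT 2 and weaker in the other 3.

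Among the altered proteins the region was called by 19 of 20 libraries in the whole lists and by 15 in the lists of equal length. ARID1B_S320_G327del had ranks of 2310 and 1221, next to the wild type, and its ranks overlapped those of ARID1B_WT. ARID1B_A457_G461del had 3072 and 2754, ARID1A_delIDR1 2647 and 3132 and ARID1A_DBDmut 2991 and 3618. These 3 constructs overlapped in a chain and all lay beyond every wild-type library in rank. Their fold did not set them apart from the wild type, at 4.70 to 5.38. It was 5.05 and 5.36 with ARID1B_A457_G461del, 5.11 and 4.70 with ARID1A_delIDR1 and 5.39 and 5.35 with ARID1A_DBDmut. ARID1A_CBR followed with 6193 and 3808, without overlap with ARID1A_DBDmut, and ARID1B_Block13del with 11490 and 10187, without overlap with ARID1A_CBR.

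At the end of the list stood ARID1B_Block9del with ranks of 20056 and 17392, ARID1A_Y42S with 20896 and 18369, ARID1A_AQGscramC1C2 with 19751 and 22452, and ARID1A_DDX4 with 18128 in 1 library and no peak in the other. These 4 constructs overlapped each other and not ARID1B_Block13del. The measure differed between the 10 altered constructs by more than the spread between replicates (log10 rank in lists of equal length, F = 49.6, permutation test, adjusted p = 1.5e-05 over 3 measures; the unadjusted p of 1e-05 is the smallest that 100000 permutations can give). Within run E, which holds ARID1A_Y42S and 3 ARID1B deletions, F was 293 (exact permutation test, n = 8, p = 0.0286, adjusted p = 0.0429). Within runs A and B the 3 altered ARID1A proteins did not pass (F = 2.94, exact permutation test, n = 6, p = 0.133, adjusted p = 0.400), where the smallest p possible is 0.0667.

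List length moved with this order. The 4 constructs at the end had lists of 19489 to 36160 peaks, the wild-type libraries lists of 59826 to 76589, and the part of list length in the order was not tested beyond the trimming. The longest Empty_vector list, 49528 peaks, lacked the region, while 12 shorter lists held it, among them ARID1A_CBR 1 with 45159 peaks and ARID1A_Y42S 2 with 19489. The ranking also matters: by fold enrichment in place of the p-value the region stood only at 26537 to 40907 in the 4 wild-type lists, it was no longer gained, and the difference between altered constructs was lost (F = 0.922, permutation test, adjusted p = 0.950).

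**Figure D3:**
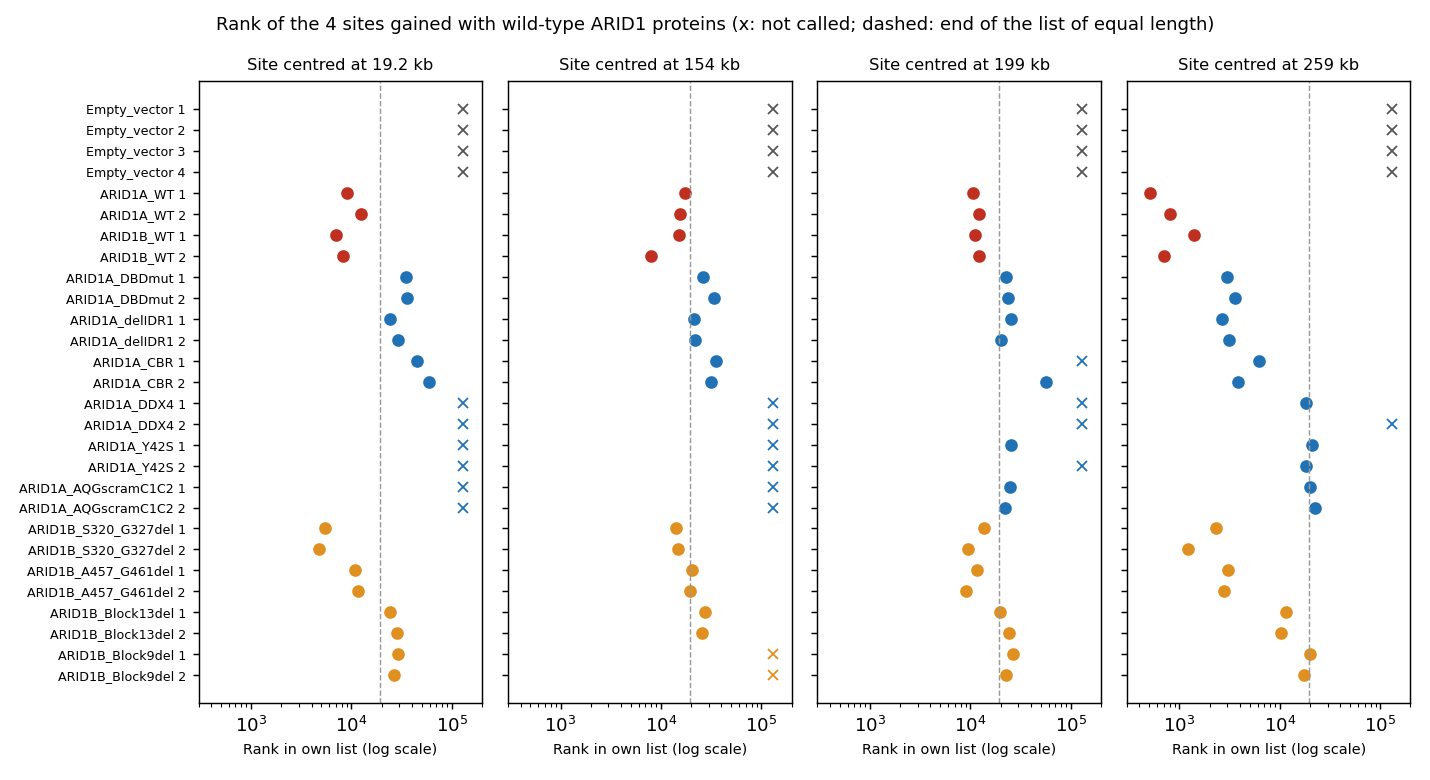
Rank (log scale) of the 4 gained sites, centred at 19.2, 154, 199 and 259 kb from the JARID2 start; each point is 1 library, a cross is a library that did not call the site, and the dashed line is the end of the list of equal length at 19433. All 4 Empty_vector libraries are crosses in each panel, the 4 wild-type points lie left of the line, and at 259 kb the altered constructs spread from 1221 to 22452.

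The peaks called at this region differed in width as well as in rank. Wild-type peaks were 1166 to 1497 bp wide, those of ARID1A_DBDmut 1352 and 1234 bp, of ARID1A_delIDR1 1208 and 1260 bp and of ARID1A_CBR 1375 and 1251 bp. These 3 truncated or mutated ARID1A proteins thus had peaks about as wide as the wild type, although they ranked lower. ARID1B_Block13del peaks measured 929 and 714 bp, ARID1B_Block9del 1 662 bp, ARID1A_Y42S 615 and 367 bp and ARID1A_DDX4 1 379 bp. The ARID1B_Block9del 2 peak spanned chr6:15505057-15505513, the latest left edge of all. ARID1A_AQGscramC1C2 had peaks of 652 and 1028 bp, the wider in its longer list.

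All 23 peaks shared a core of 302 bp, chr6:15505057-15505358, which is 18.6% of the region. The left edge of the peaks varied over 758 bp and the right edge over 560 bp. The fold enrichment did not follow the width: ARID1B_Block13del 2, with a peak of 714 bp, had the highest fold of the 23, 5.86, and ARID1B_Block9del had 4.87 and 5.22, within the range of the wild type. The lowest folds were those of the narrowest peaks in 2 short lists, 3.01 in ARID1A_Y42S 2 and 3.14 in ARID1A_DDX4 1. Sequence of the core in hg19 was not analysed here.

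**Figure D4:**
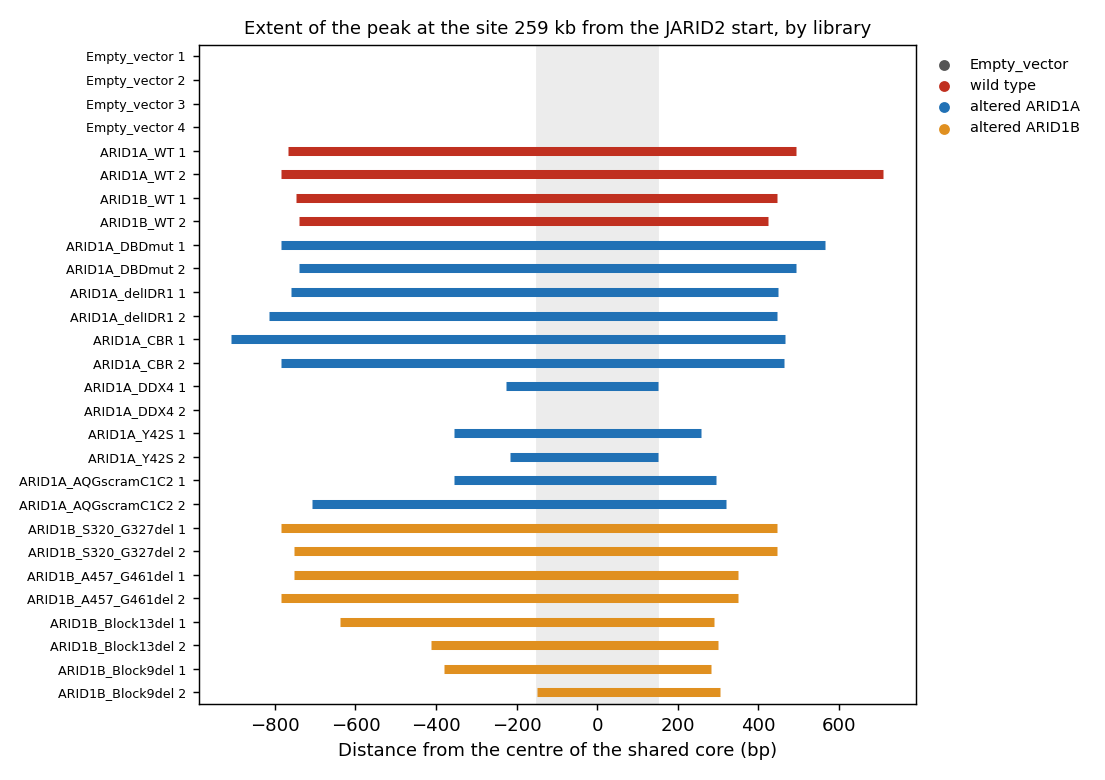
Extent of the peak at the site centred 259 kb from the JARID2 start in each library, as distance in bp from the centre of the core that all 23 peaks share (shaded, 302 bp). The 5 libraries without a bar, Empty_vector 1 to 4 and ARID1A_DDX4 2, did not call the region. The bars of ARID1A_DDX4 1, ARID1A_Y42S, ARID1A_AQGscramC1C2, ARID1B_Block13del and ARID1B_Block9del are shorter than those of the wild type. Those of ARID1B_A457_G461del, at 1103 and 1137 bp, are slightly shorter.

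The other gained sites lie deeper in the lists. The one nearest the gene start, chr6:15265211-15266268, centred at 19.2 kb, ranked 9117 and 12440 with ARID1A_WT and 6989 and 8192 with ARID1B_WT. ARID1B_S320_G327del ranked it higher than every wild-type library, at 5443 and 4699, and ARID1B_A457_G461del at 10911 and 11740. All other altered constructs fell beyond the list of equal length, from 23914 (ARID1A_delIDR1 1) to 59718 (ARID1A_CBR 2). ARID1A_DDX4, ARID1A_Y42S and ARID1A_AQGscramC1C2 did not call it at all.

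The site at chr6:15399960-15400789, centred at 154 kb, had wild-type ranks of 17505, 15507, 15010 and 7892, of which the last, ARID1B_WT 2, stood apart at a fold of 7.09. In lists of equal length ARID1B_S320_G327del alone of the altered constructs called it, at 14065 and 14722. ARID1B_A457_G461del, at 20392 and 19613, lay just beyond the end of that list. The 12 altered libraries that called it in whole lists reached from 14065 to 35653, and ARID1A_DDX4, ARID1A_Y42S, ARID1A_AQGscramC1C2 and ARID1B_Block9del lacked it.

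The site at chr6:15444364-15446050, centred at 199 kb, was wide, at 1375 to 1637 bp in the wild-type libraries, with ranks of 10706, 12288, 11117 and 12109. ARID1B_A457_G461del, at 11648 and 9092, and ARID1B_S320_G327del, at 13750 and 9485, overlapped the wild type. No other altered library had it in the list of equal length. In whole lists it was the one of these 3 that reached ARID1A_AQGscramC1C2, at ranks 24973 and 22052, and ARID1A_Y42S 1, at 25455, with a peak of 308 bp in the latter.

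Read together, the 4 gained sites parted the altered constructs as follows, in lists of equal length and beside the share of all 1903 gained sites of the series that both libraries of the construct called. ARID1B_S320_G327del called all 4 (91.4% in the series) and ARID1B_A457_G461del 3 (75.9%). Those with only the 259 kb site were ARID1A_DBDmut (40.1%), ARID1A_delIDR1 (37.7%), ARID1B_Block13del (19.9%) and ARID1A_CBR (16.5%). No gained site was called by both libraries of ARID1A_DDX4 (4.05%), ARID1A_Y42S (1.63%), ARID1B_Block9del (1.58%) or ARID1A_AQGscramC1C2 (1.52%). The 259 kb site was called by 1 library each of ARID1A_DDX4, ARID1A_Y42S and ARID1B_Block9del. A count out of 4 sites is too small to set JARID2 apart from these shares.

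Beyond the gene end, the site at chr6:15535967-15536932 ranked higher with ARID1B_WT than with ARID1A_WT. It ranked 8014 and 8256 with ARID1B_WT and 35829 and 23178 with ARID1A_WT, and no Empty_vector library called it. Its fold was 6.37 and 6.64 against 4.04 and 4.88. Among the altered ARID1B proteins ARID1B_A457_G461del had ranks of 17856 and 9911, ARID1B_S320_G327del 13420 and 12111 and ARID1B_Block13del 18066 and 24295, while ARID1B_Block9del lacked it. The altered ARID1A proteins that called it ranked it from 31562 to 62345, so that every ARID1B library with a peak except ARID1B_Block13del 2 stood ahead of every ARID1A library. ARID1A_DDX4, ARID1A_Y42S and ARID1A_AQGscramC1C2 lacked the site, as ARID1B_Block9del did. ARID1A and ARID1B wild-type libraries came from different runs, so that protein and run cannot be told apart in this pair, and the difference was not tested. The site was picked out of the 49, and the share of all sites with such an order was not counted, so nothing is read from it.

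A site at chr6:15307967-15309582, centred at 62.3 kb, was in the list of equal length with ARID1B_A457_G461del alone, at ranks 15040 and 17671. The wild-type libraries called it at 55666, 41406, 25471 and 41473, all weaker than both of these, and no Empty_vector library had it. ARID1A_DBDmut was the one altered ARID1A protein with a peak there, at 35825 and 30157. The site at chr6:15462689-15464790, centred at 217 kb, changed shape: Empty_vector 1 and 2 had peaks of 264 and 248 bp at its distal end, whereas ARID1A_WT peaks of 1928 and 1882 bp and the ARID1B_WT 1 peak of 1795 bp spanned nearly all of it, and ARID1B_WT 2 had 2 peaks. Ranks of ARID1A_WT (28058 and 30981) and Empty_vector (27670 and 33845) overlapped there.

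The other 39 sites are given by their range. Of these, 37 were in no list of equal length, and the best rank that any library gave to one of the 39 ran from 15872 to 74432. They were called by 1 to 17 libraries, with a median of 7. All wild-type libraries called 11 of them in the whole lists, and 9 were in no wild-type list. Of the 11, 7 were called by no Empty_vector library, beside 14.8% of all sites in the series. These 39 are what remained after the stronger sites were named, and nothing is read from the counts.

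Over the whole series, each list of equal length held 16.0% to 16.5% of all sites. The trimming to the same number of peaks nearly fixes this share in every library. It therefore cannot show a difference between groups and is no measured background for the locus. Of the 49 sites at JARID2 the Empty_vector lists held 4.08% to 6.12% and the wild-type lists 14.3% to 18.4%. In numbers, Empty_vector 1 to 4 called 3, 3, 2 and 3 sites, ARID1A_WT 7 and 7, and ARID1B_WT 9 and 8. The covered length was 3091, 4370, 2417 and 2719 bp with Empty_vector, 8014 and 8160 bp with ARID1A_WT and 8293 and 7420 bp with ARID1B_WT. Neither measure overlapped between wild type and Empty_vector. Both include the 4 gained sites, which by definition every wild-type and no Empty_vector list of equal length holds. The contrast also chose the locus, so nothing is read from this.

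The altered constructs spanned the range between these groups. ARID1B_A457_G461del called 8 sites in both libraries, over 8170 and 8055 bp, and ARID1B_S320_G327del 7 in both, over 6302 and 6775 bp. ARID1A_CBR and ARID1B_Block13del called 5 and 4, and ARID1A_DBDmut and ARID1A_delIDR1 4 in every library. ARID1A_Y42S and ARID1B_Block9del called 3 and 4, ARID1A_AQGscramC1C2 3 and 3, and ARID1A_DDX4 3 and 2, which is within 1 site of the Empty_vector libraries. ARID1A_DDX4 also covered least, with 2498 and 2070 bp.

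Constructs differed in the number of sites called by more than the spread between replicates (F = 24.2, permutation test with 20 libraries, p = 0.000540, adjusted p = 0.000540), and in covered length (F = 78.0, permutation test, p = 1e-05, adjusted p = 1.5e-05). Both measures include the 4 gained sites, which wild type against Empty_vector defined. These made up 4 of the 7 sites of each ARID1B_S320_G327del library and 3 of the 8 of each ARID1B_A457_G461del library. The difference without the gained sites was not tested. Within run E the covered length differed (F = 164, exact permutation test, n = 8, p = 0.0286, adjusted p = 0.0429) and the number of sites did not pass (F = 24.3, exact permutation test, n = 8, p = 0.0857). Within runs A and B neither passed (F = 1.34 and 1, exact permutation tests, n = 6, adjusted p = 0.5 and 1). With peaks ranked by fold enrichment both differences were lost over all 20 libraries (F = 0.579 and 0.395, permutation tests, adjusted p = 0.950 for both).

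**Figure D5:**
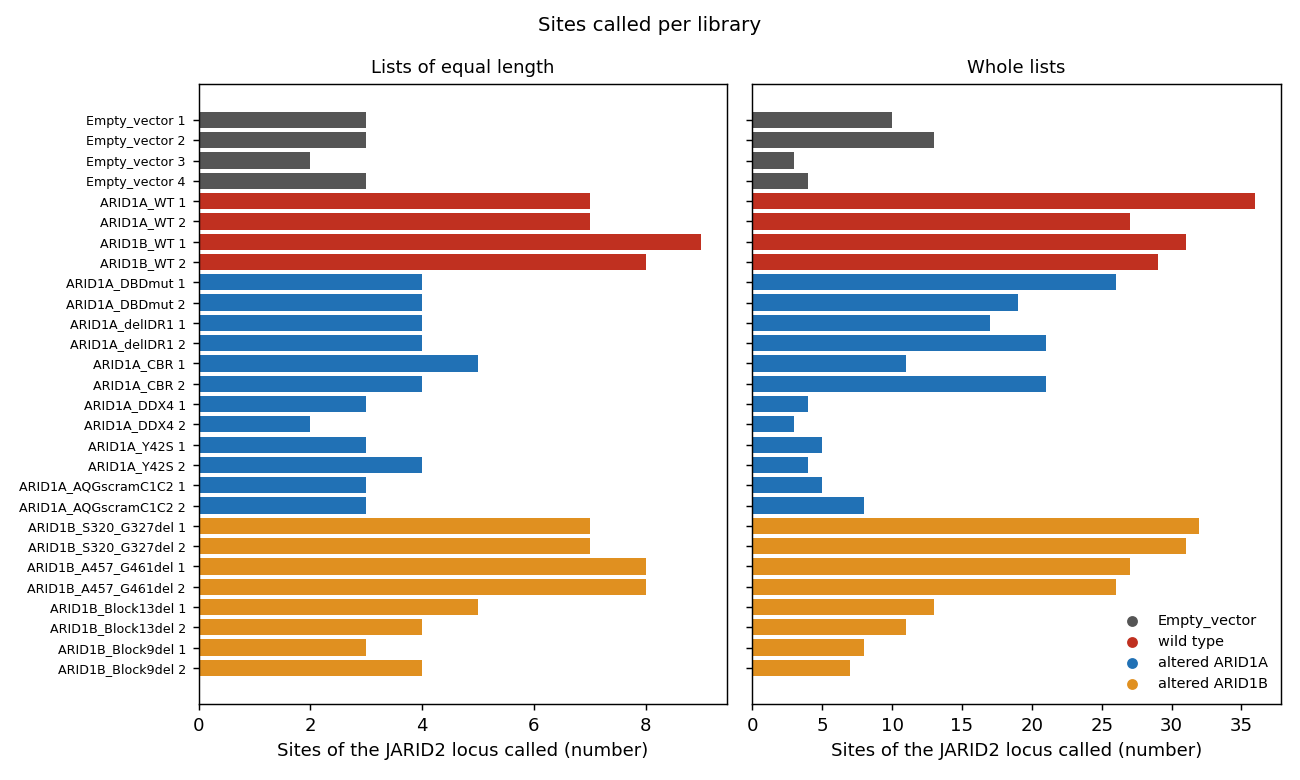
Number of the 49 JARID2 sites called by each library in the list of equal length (left) and in the whole list (right); each bar is 1 library and bars start at 0. Empty_vector libraries call 2 to 3 sites at equal length and wild-type libraries 7 to 9, and in whole lists 3 to 13 and 27 to 36.

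The counts in the whole lists are given beside the list lengths, whose part in them was not tested. Empty_vector libraries called 10, 13, 3 and 4 sites, in which the larger numbers belong to runs A and B with lists of 45286 and 49528 peaks and the smaller to run C with 24573 and 28353. Wild-type libraries called 27 to 36. Per 10000 peaks of the list this was 1.22 to 2.62 sites with Empty_vector, 4.35 to 4.88 with wild type and 1.27 to 5.12 in the altered libraries. ARID1B_A457_G461del and ARID1B_S320_G327del, at 5.12 and 5.12 and at 5.04 and 4.41 sites per 10000 peaks, lay at or above the wild-type range, and ARID1A_DBDmut, at 4.44 and 3.89, came next.

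The sites elsewhere whose ranks over the 28 libraries were most like those of the 259 kb region were sought by Pearson correlation of log10 rank in the lists of equal length, as a description, since the points share libraries and list lengths. The closest 5 lay at chr4:5526222-5527301 (r = 0.963), chr1:173091765-173092923 (r = 0.947), chr12:120130306-120132075 (r = 0.946), chr5:159591857-159593037 (r = 0.945) and chr10:69913219-69914142 (r = 0.944). All were in the 4 wild-type and in no Empty_vector list of equal length, which the choice by likeness to this region favours. In whole lists they were called by 1, 3, 0, 2 and 0 Empty_vector libraries, in the order just given. Within the locus the nearest in pattern was the 199 kb site (r = 0.762), followed by the 19.2 kb site (r = 0.722), while the second promoter-side site at 2.07 kb ran the other way (r = -0.497).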

How the data were processed

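ATAC-seq peak lists of 28 AN3CA libraries were used. The genome build hg19 and the tools MACS2, SAMtools 0.1.19, Picard 2.8.0, Bowtie2 and bcl2fastq are named per the submitters' processing notes. Caller options and any shift of reads for the transposase offset were not given in the sources used here. Peaks were called per library. In the deposited lists column 7 is a fold enrichment (a ratio over the caller's background), columns 8 and 9 are the authors' −log10 p-value and −log10 q-value, and column 5 is the deposited score, which was not used. The smallest −log10 q-value per list was 3.00 to 3.03.

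Peaks on chromosomes 1 to 22 and X were ranked by −log10 p-value and merged across libraries where they shared at least 1 bp. A library calls a site if 1 of its peaks lies in it. Lists of equal length hold the top 19433 peaks, as many as ARID1A_Y42S 2, the shortest, has on these chromosomes. A library without the 259 kb region in that list was given rank 19434 on the log10 scale. The measures (sites called, covered bp, log10 rank) were compared across the 10 altered constructs by a one-way F with 100000 permutations of libraries, or all splits within runs, adjusted after Benjamini and Hochberg at 0.05. Wild type and Empty_vector, whose contrast chose the locus, were left out of these tests. The scripts (Python 3.11.15, NumPy 2.4.6) were tested on simulated data.

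Named with values are the site nearest the gene start, all gained or lost sites, those in all 28 libraries and the 10 with the best mean rank. The members and lists were chosen with earlier results of these data known. PRC2 partner genes were not analysed here, as no hg19 annotation was used. Promoter sequences are those of RefSeq, GRCh38.p14.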

Additional observations from a re-analysis of the deposited data

Results flagged for a closer look

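Among the Empty_vector libraries the number of JARID2 sites in the list of equal length was 3 in 3 libraries and 2 in the other, Empty_vector 3, whose gap to the rest is the whole range of the group. The missing site is the one centred at 245 kb, which that library called at rank 19569, just past the end of the list. Chance flags about 1 in 20 groups, and 7 measures of this group were examined.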

How the results depend on the processing

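Ranking by fold enrichment in place of the p-value was the one setting that ended the differences between altered constructs. The F statistics fell to 0.395 for sites called, 0.579 for covered length and 0.922 for the rank of the 259 kb region, and no gained site was left (0 against 4). The number of gained sites also moved with the lists, to 13 in whole lists, 1 in lists of 9716 peaks and 1 at equal covered length, and it was 4 when a peak had to cover 50% of the site, without the flanks, or with sites of at least 2 libraries. The 259 kb region remained gained in all of these except under ranking by fold. No site was lost under any setting. Leaving out single libraries gave F of 16.5 to 27.4 for sites called, 52.3 to 101 for covered length and 41.8 to 90.5 for the rank, each past the threshold, and left 4 gained sites each time. Other lists lowered F without ending a call. For covered length it was 19.6 in whole lists, 6.67 in lists of 9716 peaks and 9.34 at equal covered length, and for sites called 20.8, 5.53 and 4.90, where the largest adjusted p (permutation test) was 0.0295. For the rank these settings gave 46.2, 25.5 and 36.1. With the replicate number as a block, F was 22.2, 72.6 and 53.1 (permutation tests, adjusted p = 0.00255, 6e-05 and 6e-05), which changed no call. Across all altered constructs the numbers do not pair the libraries, since deviations of same-numbered libraries correlated at -0.155 to 0.195, above 0.1 in 4 of 45 pairs. In runs A and B the number does name the run, and the 3 correlations there were 0.0178 to 0.195. With the run as a block, a fit chosen after seeing the data, F within these runs was 1, 1.41 and 1.997 for sites called, covered length and rank (exact permutation tests, n = 6, adjusted p = 1, 0.5 and 0.5), where the smallest p possible is 0.167 and none can pass. The cause of the change under ranking by fold was not tested. Read depth is unknown, and the threshold of each list limits what can be seen: a site without a peak may still have signal.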

Other observations

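The site at chr6:15441432-15441917, centred at 195 kb, was in the lists of Empty_vector 1 and 2 and of 5 altered libraries, with its best rank of 21337 in Empty_vector 2, and in none of the 4 wild-type lists. The site at chr6:15390325-15392117, centred at 145 kb, was called by 3 Empty_vector, 3 wild-type and 11 altered libraries, and in lists of equal length by ARID1A_CBR 1 alone, at rank 17155.

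Next to the 259 kb region, the site at chr6:15502214-15502689, centred at 256 kb, was called by all 4 wild-type libraries, by 5 altered libraries and by no Empty_vector library, with a best rank of 20627. The region at 256 kb was in no list of equal length.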
